A study of Rattus norvegicus with 6 samples.

Results

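The tumor necrosis factor (TNF) ligands and their receptors form 2 matched gene families, and 38 of the 22250 genes in the table of rat heart reads belong to them: 17 ligands and 21 receptors. Members were taken by symbol alone, as the genes named Tnfsf or Tnfrsf with a number together with Tnf, Lta, Ltb, Ltbr, Fas, Faslg, Cd40, Cd40lg, Cd27 and Cd70. The rule itself uses no measured value, but the family was chosen with earlier results of these data known. RNA-Seq was performed on left ventricular myocardium from 6 transplanted hearts of wild-type Sprague-Dawley rats. The 3 young donor hearts came from rats of 10 weeks and the 3 aged donor hearts from rats of 1 year, all male. Every heart was kept in cold storage, grafted by heterotopic transplantation into a young recipient that the study calls syngeneic, without immunosuppressants, and collected on postoperative day 1. A heterotopic graft beats without its normal load, and all hearts in the comparison share storage, surgery and reperfusion, so the only labelled difference is donor age. The libraries carry the numbers 3, 13 and 15 in the young group and 3, 4 and 7 in the aged group, which are taken here as numbers of separate donor animals, and the number 3 names a different heart in each group. These hearts are the replicates behind the p-values. Those of edgeR also include counting error and a spread between hearts that is drawn towards that of other genes.

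TNF ligands are made as trimers on the cell surface and many can be cut free. They bind receptors that recruit TRAF adaptors and switch on the transcription factor NF-kB, or, for receptors with an intracellular death domain, assemble a complex that can activate caspases. Decoy receptors bind ligand without passing on a signal. In the heart, TNF, TWEAK (Tnfsf12) with its receptor Fn14 (Tnfrsf12a), and Fas are known from work on ischemic injury, remodeling and cell death, and many other members act between leukocytes.

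Promoters of 29 of the 38 members were in the RefSeq table for the rat build GRCr8. Of these, 4 are printed for members on which the results turn, chosen after their values were seen. They include a ligand and a receptor with large rises that each held a motif match. The others are the receptor with the highest mean FPKM (reads per gene length and library total) in aged donor hearts, and the ligand that fell. Each run is the 250 bases before the RefSeq start site, read 5′ to 3′ on the strand of the gene, and capitals mark matches to the NF-kB consensus, the AP-1 motif TGANTCA or the GC box GGGCGG on either strand.
Tnfsf14, minus strand, chr9:2160087-2160336: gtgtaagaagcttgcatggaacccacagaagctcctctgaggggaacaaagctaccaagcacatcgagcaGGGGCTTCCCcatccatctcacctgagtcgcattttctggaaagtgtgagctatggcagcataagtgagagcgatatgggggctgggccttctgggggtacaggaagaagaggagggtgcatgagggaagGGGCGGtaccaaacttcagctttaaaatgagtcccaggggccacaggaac
Tnfrsf1b, minus strand, chr5:162387412-162387661: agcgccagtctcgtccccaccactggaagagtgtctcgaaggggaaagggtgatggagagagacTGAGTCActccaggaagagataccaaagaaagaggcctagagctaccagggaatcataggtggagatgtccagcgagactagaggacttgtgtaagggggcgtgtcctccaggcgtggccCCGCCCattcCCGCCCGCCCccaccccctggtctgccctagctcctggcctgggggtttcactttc
Tnfrsf12a, minus strand, chr10:13213649-13213898: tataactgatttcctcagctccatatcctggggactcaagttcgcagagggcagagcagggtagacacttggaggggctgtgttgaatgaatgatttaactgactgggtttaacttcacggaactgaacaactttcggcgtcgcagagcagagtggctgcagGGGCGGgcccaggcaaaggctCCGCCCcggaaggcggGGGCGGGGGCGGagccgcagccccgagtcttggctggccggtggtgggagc
Tnfsf10, plus strand, chr2:112136689-112136938: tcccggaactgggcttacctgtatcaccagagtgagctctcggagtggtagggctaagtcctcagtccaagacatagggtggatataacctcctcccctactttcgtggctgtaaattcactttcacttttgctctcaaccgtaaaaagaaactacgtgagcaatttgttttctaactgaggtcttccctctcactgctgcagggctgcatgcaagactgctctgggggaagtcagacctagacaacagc
The Tnfsf14 window holds an NF-kB match from 180 to 171 bases before the start site and a GC box from 50 to 45. The Tnfrsf1b window holds an AP-1 match from 186 to 180 bases before the start site and 3 GC boxes, of which the last 2 overlap. The Tnfrsf12a window holds 4 GC boxes between 88 and 40 bases before the start site, and the Tnfsf10 window holds none of these letters. Among the 33469 promoters of the same length in that table, 3.54% hold the NF-kB consensus, 6.34% the AP-1 motif and 30.5% the GC box, and among the 29 members with a promoter 4, 3 and 15 do. The other NF-kB matches among members are in Lta, Ltb and Tnfrsf8, and the other AP-1 matches in Fas and Tnfrsf8. These are matches of letters in a window, and binding was not measured.

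The libraries held between 21457509 and 24560869 reads counted on genes, and levels are given as CPM, read counts relative to library sizes scaled with TMM (trimmed mean of M values), per 1e6 reads. Young animal 15 stood apart from the other young donor hearts. Over the 27 members with enough reads to test, the root mean square difference in log2 CPM was 0.775 between young animals 3 and 13, 1.61 and 1.63 between each of them and young animal 15, and 0.930 between young animal 15 and aged animal 4, its nearest heart. The 10 cardiomyocyte markers tested summed to 13397 CPM in young animal 15 against 100510 and 110570 CPM in young animals 3 and 13, and to between 618 CPM (aged animal 3) and 8268 CPM in aged donor hearts. Counts of members are therefore given with and without young animal 15. That heart was singled out from these same values, so larger differences without it follow in part from the choice. The counts and fold changes without it are descriptive and no independent test.

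Most members past the limits were higher in aged donor hearts. Of the 27 members tested, 9 were past the limits used by the study (an aged over young fold over 1.5, or under 0.67, at an unadjusted p-value below 0.05) and higher in aged donor hearts, against 13.2% of all 13784 genes tested. Tnfsf10 alone was past them and lower, against 19% of all genes. "Rose" and "fell" are used only for genes past these limits. The ligands Tnfsf9, Tnfsf13 and Tnfsf14 rose, as did the receptors Ltbr, Tnfrsf1b, Tnfrsf11b, Tnfrsf18, Tnfrsf21 and Tnfrsf26. These are 3 of 9 ligands and 6 of 18 receptors tested. Without young animal 15 the counts among the same genes were 4 and 11, against 26.9% of all genes. For 13 of the 27 members each aged heart was above each young heart, against 21% of all genes, and for 1 each aged heart was below, against 20.7%. Set against young animals 3 and 13 alone these counts were 16, against 37% of all genes, and 2, against 36.3%. The median log2 fold change was 0.24 over the 9 ligands tested, 0.93 over the 18 receptors tested and 0.016 over all genes tested. With scaling by library totals in place of TMM, the median of all genes moved to 0.46 and the calls of all genes from 1815 higher and 2621 lower to 3147 higher and 1440 lower, while the members counted 11 higher and 1 lower.

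**Figure D1:**
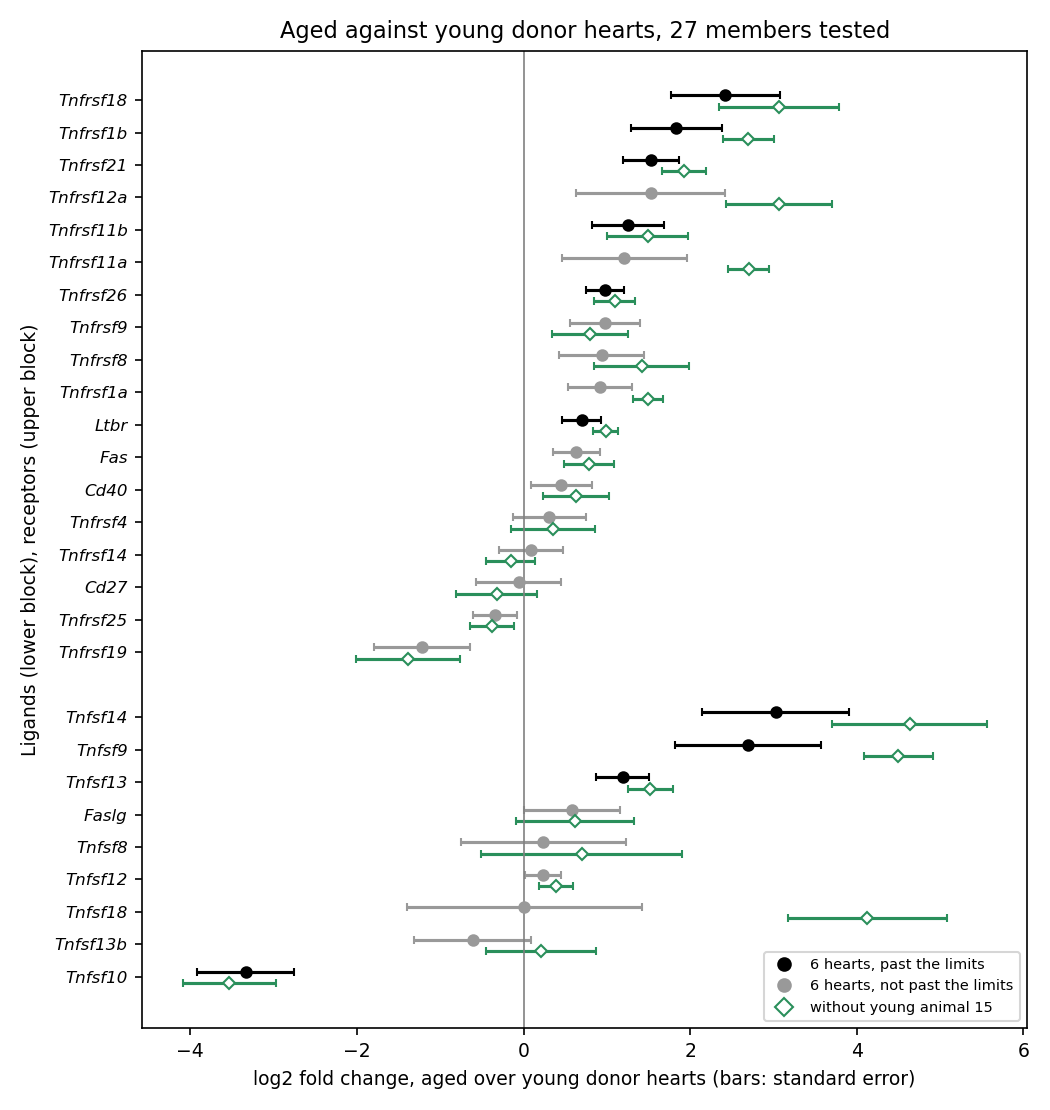
Log2 fold change (aged over young donor hearts, with its standard error) of the 27 members tested, receptors above and ligands below. Filled circles use all 6 hearts, in black where past the limits, and open diamonds leave out young animal 15. Of the black circles 9 lie right of 0 and Tnfsf10 alone lies left of it, at -3.34.

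After Benjamini-Hochberg adjustment of edgeR's quasi-likelihood test over all genes, 0 of the 27 members stayed under 0.05, with 0.0916 as the smallest adjusted p-value. The unadjusted p-value was under 0.05 for 10 of them, and the adjusted value was under 0.05 for 10 members by DESeq2, against 26.1% of all genes, and for 17 by limma-voom with quality weights, against 61.1%. Without young animal 15, 16 of 28 members tested were higher and 1 was lower, against 26.9% and 24.2% of all genes, and 14 members then had an adjusted p-value under 0.05 by edgeR's quasi-likelihood test, against 48.3% of all genes. Without aged animal 3, the heart with the lowest cardiomyocyte markers, 6 members were higher and 1 was lower, against 7.47% and 14.7% of all genes. A two-sided exact permutation test of 3 hearts against 3 cannot give a p-value below 0.1, which is the value for each member whose groups did not overlap.

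The only ligand that fell was Tnfsf10 (ENSRNOG00000013269, chr2:113007549-113026899 in Rnor_6.0, the build named with the deposited table), which encodes TRAIL, an inducer of apoptosis through death receptors. Its level was 58.3, 62.3 and 33.1 CPM in young animals 3, 13 and 15 and 8.04, 5.34 and 1.80 CPM in aged animals 3, 4 and 7. The groups did not overlap, and the lowest young heart was above the highest aged heart. Tnfsf10 fell by 3.34 on the log2 scale (SE 0.58, edgeR quasi-likelihood adjusted p = 0.0916), and it was past the limits in each of the 6 fits that left out 1 heart. Osteoprotegerin (Tnfrsf11b), a soluble decoy that binds TRAIL and RANKL, measured 3.69, 2.99 and 4.75 CPM in young donor hearts and 14.2, 5.04 and 8.08 CPM in aged donor hearts. The highest young heart and the lowest aged heart lay close together for Tnfrsf11b (ENSRNOG00000008336, chr7:93798545-93826665), which rose by 1.26 on the log2 scale (SE 0.43, edgeR adjusted p = 0.112). That call was lost without young animal 3 (1.23), without young animal 13 (1.11) and without aged animal 3 (0.79). The TRAIL death receptor Tnfrsf10b was not analysed here.

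Tnfsf13 and Tnfsf12 lie next to each other on the same strand of chromosome 10, within 56286887 to 56300077. Tnfsf13 (ENSRNOG00000014171) encodes APRIL, a survival factor for plasma cells, and measured 9.92, 7.18 and 14.3 CPM in young donor hearts and 27.6, 25.8 and 18.3 CPM in aged donor hearts. Every aged heart was above every young heart, and Tnfsf13 rose by 1.19 on the log2 scale (SE 0.32, edgeR adjusted p = 0.0916), also without any single heart. Both receptors of APRIL were near the detection limit. Tnfrsf13b (TACI) had 0, 5 and 2 reads in young donor hearts and 2, 5 and 2 reads in aged ones, and Tnfrsf17 (BCMA) had 1, 3 and 1 reads in young and 1, 15 and 2 reads in aged donor hearts. B cell and plasma cell markers summed to between 5.26 and 8.75 CPM in young donor hearts and between 6.48 and 19.2 CPM in aged donor hearts, and 0 of the 5 tested were past the limits (2 had too few reads for the test). Tnfsf12, the neighbour of Tnfsf13, encodes TWEAK and measured 41.5, 39.1 and 50.6 CPM in young and 60.1, 54.9 and 39.4 CPM in aged donor hearts. These ranges overlapped and the log2 fold change was 0.23 (SE 0.22, edgeR adjusted p = 0.449). Reads that run from one of these adjoining genes into the other could not be separated.

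Tnfsf14, Cd70 and Tnfsf9 are neighbours on chromosome 9, within 9761536 to 9912276. Tnfsf9 (ENSRNOG00000045595), the 4-1BB ligand, a costimulator of T cells, measured 0.726, 0.572 and 5.24 CPM in young donor hearts and 18.2, 15.4 and 9.69 CPM in aged donor hearts. Young animal 15 was the highest of the young donor hearts and still below each aged heart. Tnfsf9 rose by 2.695 on the log2 scale (SE 0.88, edgeR adjusted p = 0.103), and by 4.50 without young animal 15. It was not past the limits without aged animal 3 (2.50) or without aged animal 4 (2.65). Its receptor Tnfrsf9 (4-1BB) stood at 0.423, 0.381 and 0.248 CPM in young and 0.755, 0.72 and 0.575 CPM in aged donor hearts, without overlap, and its log2 fold change was 0.97 (SE 0.42, edgeR adjusted p = 0.156).

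Tnfsf14 (ENSRNOG00000047730) encodes LIGHT, a ligand of the lymphotoxin beta receptor and of HVEM (Tnfrsf14). It was counted at 0, 2 and 10 reads in young donor hearts and at 65, 28 and 44 reads in aged donor hearts, which is 0, 0.127 and 0.413 CPM against 2.13, 1.06 and 1.69 CPM. Only 1 young heart exceeded 3 reads, the number taken here as the floor of detection, and no aged heart was near it. Tnfsf14 rose by 3.03 on the log2 scale (SE 0.88, edgeR adjusted p = 0.0931) and by 4.63 without young animal 15. Cd70, between these genes, had 0, 0 and 2 reads in young and 9, 6 and 1 reads in aged donor hearts and was not tested. Its receptor Cd27 had a log2 fold change of -0.060 (0.46 with library totals), with overlapping groups.

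Ltbr, the lymphotoxin beta receptor, which drives the noncanonical NF-kB pathway, lies on chromosome 4 with Cd27 and Tnfrsf1a, within 157744882 to 157877633. It measured 71.6, 68.6 and 109 CPM in young donor hearts and 146, 131 and 129 CPM in aged donor hearts. The groups did not overlap, and Ltbr (ENSRNOG00000019264) rose by 0.70 on the log2 scale (SE 0.24, edgeR adjusted p = 0.106). The call was lost without young animal 3 (0.60), young animal 13 (0.58) or aged animal 3 (0.65). HVEM showed no such separation, with 4.41, 3.5 and 1.9 CPM in young and 3.61, 3.94 and 2.83 CPM in aged donor hearts and a log2 fold change of 0.087 (SE 0.38). Lymphotoxin beta (Ltb), the other ligand of Ltbr, was counted at 1, 1 and 4 reads in young and 56, 6 and 51 reads in aged donor hearts. It was too low in most hearts for the test. Without young animal 15 it passed the filter, through the reads of aged animals 3 and 7, and it is then 1 of the 16 members counted as higher.

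The reads of Ltb, Tnf and Tnfsf11 are uncertain, because the table lists a near copy of each under another name. The copy of Ltb (LOC103694381) had 0, 1 and 12 reads in young and 49, 6 and 36 reads in aged donor hearts. With both summed, Ltb had 1, 2 and 16 reads in young and 105, 12 and 87 reads in aged donor hearts, so that aged animal 4 was below young animal 15, and the log2 fold change was 2.97 (SE 1.05, edgeR adjusted p = 0.114). Tnf itself was barely detected on postoperative day 1, with 0, 0 and 2 reads in young and 2, 1 and 1 reads in aged donor hearts. Its copy (LOC103694380) had 0 reads in each young heart and 7, 1 and 1 reads in aged donor hearts. No difference in Tnf was detectable at this depth, at which 3 reads correspond to between 0.0985 and 0.191 CPM. Lta, encoding lymphotoxin alpha, had 1, 0 and 3 reads in young and 1, 1 and 4 reads in aged donor hearts.

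The receptors of TNF were measured well above this floor. Tnfrsf1b (ENSRNOG00000016575, chr5:163136390-163167299), the TNF receptor found mainly on leukocytes and endothelium, measured 14.8, 12.8 and 45.6 CPM in young donor hearts and 119, 72.9 and 69.6 CPM in aged donor hearts. The groups did not overlap, and young animal 15 lay between the other young hearts and the aged hearts. Tnfrsf1b rose by 1.83 on the log2 scale (SE 0.55, edgeR adjusted p = 0.0948), by 2.696 without young animal 15, and was past the limits in each of the 6 fits that left out 1 heart. Tnfrsf1a, the widely expressed TNF receptor with a death domain, measured 79.3, 73.3 and 181 CPM in young and 230, 187 and 213 CPM in aged donor hearts. Its groups did not overlap either, but young animal 15 was close to aged animal 4, and the log2 fold change of 0.92 (SE 0.39, edgeR adjusted p = 0.15) was not past the limits. Without young animal 15 it was 1.498 and past them.

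Of the other receptors, Tnfrsf21 (ENSRNOG00000011517, chr9:20546159-20621051), or death receptor 6, measured 13.7, 15.2 and 26.8 CPM in young donor hearts and 69.8, 41.5 and 49.4 CPM in aged donor hearts. It had the smallest p-value of the receptors, with aged donor hearts all above the young, and rose by 1.53 on the log2 scale (SE 0.34, edgeR adjusted p = 0.0916). Tnfrsf26 (ENSRNOG00000043486, chr1:216808632-216828651) measured 16.6, 18.9 and 20.6 CPM in young and 46.9, 28.7 and 34.7 CPM in aged donor hearts. Young animal 15 was near the other young hearts for Tnfrsf26, and the log2 fold change was 0.98 (SE 0.23, edgeR adjusted p = 0.0916), against 1.09 without that heart. Of the 4 members with a death domain (Tnfrsf1a, Fas, Tnfrsf21 and Tnfrsf25), Tnfrsf21 alone rose and 0 fell, against 13.2% and 19% of all genes. The aged donor hearts were all above the young for 3, against 21% of all genes. Without young animal 15 the count higher and past the limits was 3, against 26.9% of all genes. Fas, which starts apoptosis when Faslg binds it, ranged from 6.23 to 8.09 CPM in young and from 8.11 to 14.2 CPM in aged donor hearts, with a log2 fold change of 0.63 (SE 0.28, edgeR adjusted p = 0.162). It was past the limits without young animal 15 (0.79) and without aged animal 4 (0.81). Faslg had between 6 and 40 reads per heart, with overlapping groups.

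Tnfrsf18 and Tnfrsf4 are adjacent on chromosome 5, within 173447784 to 173463140, and both are costimulatory receptors of T cells. Tnfrsf18 (ENSRNOG00000022012), or GITR, was counted at 1, 6 and 13 reads in young donor hearts and at 69, 47 and 37 reads in aged donor hearts, which is 0.0605, 0.381 and 0.537 CPM against 2.27, 1.78 and 1.42 CPM. The groups did not overlap, and Tnfrsf18 rose by 2.42 on the log2 scale (SE 0.66, edgeR adjusted p = 0.0919), or 3.07 without young animal 15. Tnfrsf4 (OX40) ranged from 1.03 to 1.84 CPM in young and from 1.23 to 2.65 CPM in aged donor hearts, with a log2 fold change of 0.31, and its ligand Tnfsf4 had 2 reads in aged animal 7 and 0 in the other hearts. The ligand of GITR, Tnfsf18, varied widely within the young group, with 0.181, 0.0636 and 6.15 CPM in young and 0.755, 2.61 and 3.22 CPM in aged donor hearts. Young animal 15 was the highest of all 6 hearts for Tnfsf18, the log2 fold change was 0.0082 (SE 1.41) with that heart, and it was 4.13 and past the limits without it.

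Young animal 15 also lay within the range of the aged donor hearts for Tnfrsf12a and Tnfrsf11a. Tnfrsf12a (Fn14), the receptor of TWEAK, whose transcript is known to be induced by tissue injury, measured 12.1, 18.1 and 98.0 CPM in young donor hearts and 47.3, 185 and 138 CPM in aged donor hearts. The log2 fold change was 1.53 (SE 0.90, edgeR adjusted p = 0.252), and 3.07 and past the limits without young animal 15. Tnfrsf11a (RANK) measured 5.93, 4.38 and 32.0 CPM in young and 38.4, 32.4 and 27.3 CPM in aged donor hearts. The log2 fold change was 1.21 (SE 0.75, edgeR adjusted p = 0.275), and 2.702 and past the limits without young animal 15. The ligand of RANK, Tnfsf11, had 4 reads in young animal 15 and 0 in every other heart.

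**Figure D2:**
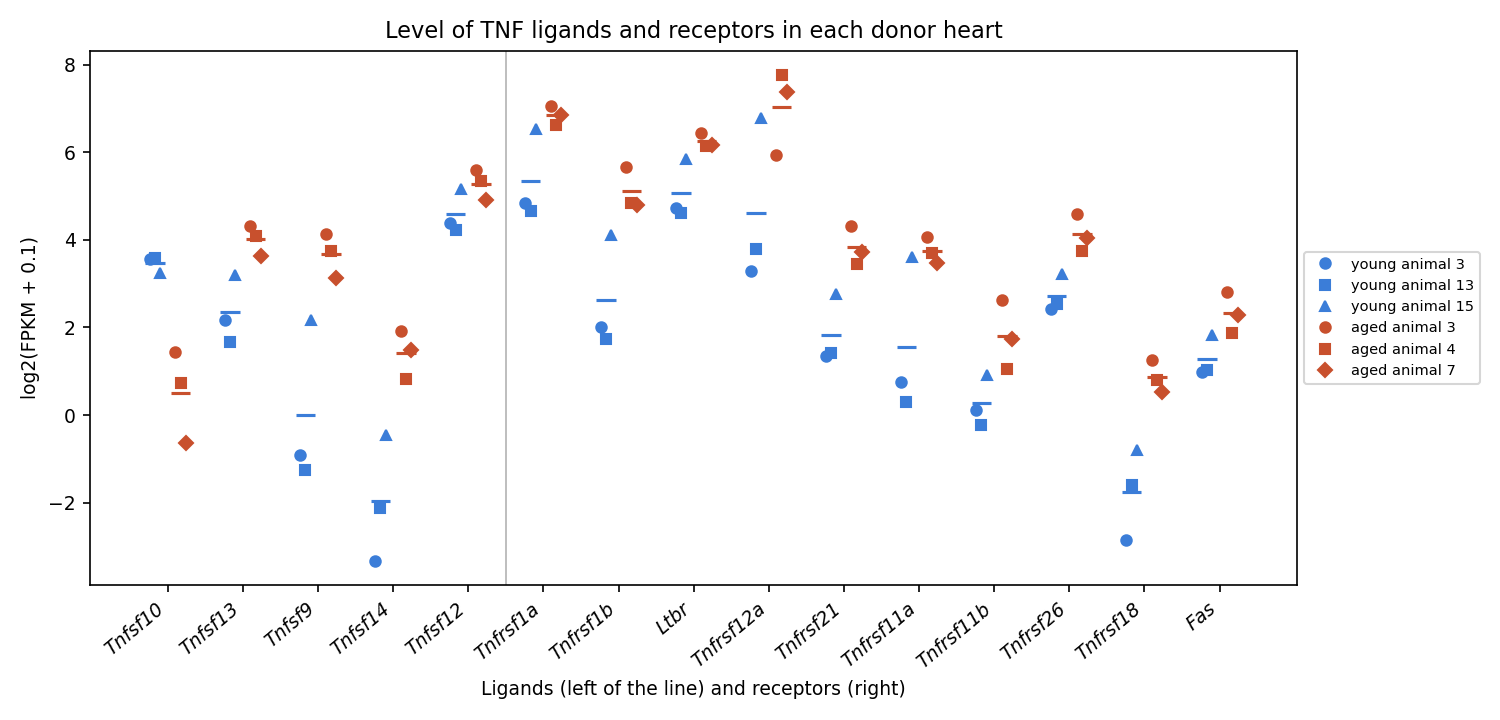
Level of 5 ligands and 10 receptors in each heart as log2 of FPKM + 0.1, with young donor hearts in blue, aged donor hearts in red and short lines at the group means. Young animal 15 (blue triangles) is above the other young hearts for every gene shown except Tnfsf10, and lies among the aged hearts for Tnfsf12, Tnfrsf12a and Tnfrsf11a.

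The remaining members tested were not past the limits. For Tnfrsf8 (CD30), at 0.181 to 0.495 CPM in young and 0.53 to 0.853 CPM in aged donor hearts, the groups did not overlap and the log2 fold change was 0.94, which was 1.42 and past the limits without young animal 15. Tnfrsf19 had a log2 fold change of -1.22 (SE 0.58), which was -1.51 and past the limits without young animal 13. The groups overlapped for Cd40 (log2 fold change 0.45), Tnfrsf25 (-0.34, or 0.13 with library totals), Tnfsf8 (0.24) and Tnfsf13b (-0.61, or 0.20 without young animal 15). Of the 11 members not tested, Cd40lg, Tnfsf15 and Tnfrsf13c had between 1 and 23 reads per heart, and the other 8 are given above with their reads.

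Levels were compared between genes as FPKM, which divides the reads by gene length and by the library total. In young donor hearts Tnfrsf1a (48.6 ± 37.6 FPKM, SD, n = 3), Tnfrsf12a (44.7 ± 57.2) and Ltbr (36.0 ± 18.4) were the receptors with the highest levels, and their ranges overlapped. In aged donor hearts Tnfrsf12a (148 ± 79.7) and Tnfrsf1a (116 ± 17.2) had overlapping ranges. Ltbr (76.7 ± 9.01) lay below Tnfrsf1a in every aged heart but within the range of Tnfrsf12a, which was the lower of the pair in aged animal 3, and Tnfrsf1b (35.8 ± 13.1) followed without overlap. Summed over receptors the level was 95.4, 90.8 and 327.7 FPKM in young animals 3, 13 and 15 and 430.4, 485.0 and 445.4 FPKM in aged animals 3, 4 and 7. Tnfrsf12a made up 10.2%, 15.2% and 33.8% of that sum in young hearts and 14.2%, 44.8% and 37.2% in aged donor hearts, and Tnfrsf1a between 20.4% and 31.0% in all hearts.

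Among ligands Tnfsf12 was first in each group, at 25.1 ± 9.34 FPKM in young and 39.5 ± 9.38 FPKM in aged donor hearts, and its share of the summed ligand level was 54.4% ± 0.858 and 50.8% ± 1.11 (SD, n = 3 each). The places below it differed between the groups. In young donor hearts Tnfsf10 was second (11.0 ± 1.40 FPKM), above Tnfsf13 (5.51 ± 3.13) and Tnfsf9 (1.71 ± 2.31). In aged donor hearts Tnfsf13 (16.4 ± 3.80) and Tnfsf9 (13.1 ± 4.36) overlapped in second place, and Tnfsf10 (1.57 ± 1.03) came after Tnfsf14 (2.69 ± 1.00), with overlapping ranges. The share of Tnfsf10 was 30.6%, 34.1% and 14.4% in young hearts and 2.68%, 2.03% and 0.92% in aged donor hearts, and that of Tnfsf9 was 1.12%, 0.922% and 6.73% against 17.9%, 17.3% and 14.6%. Young animal 15 lay between the groups for both.

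**Figure D3:**
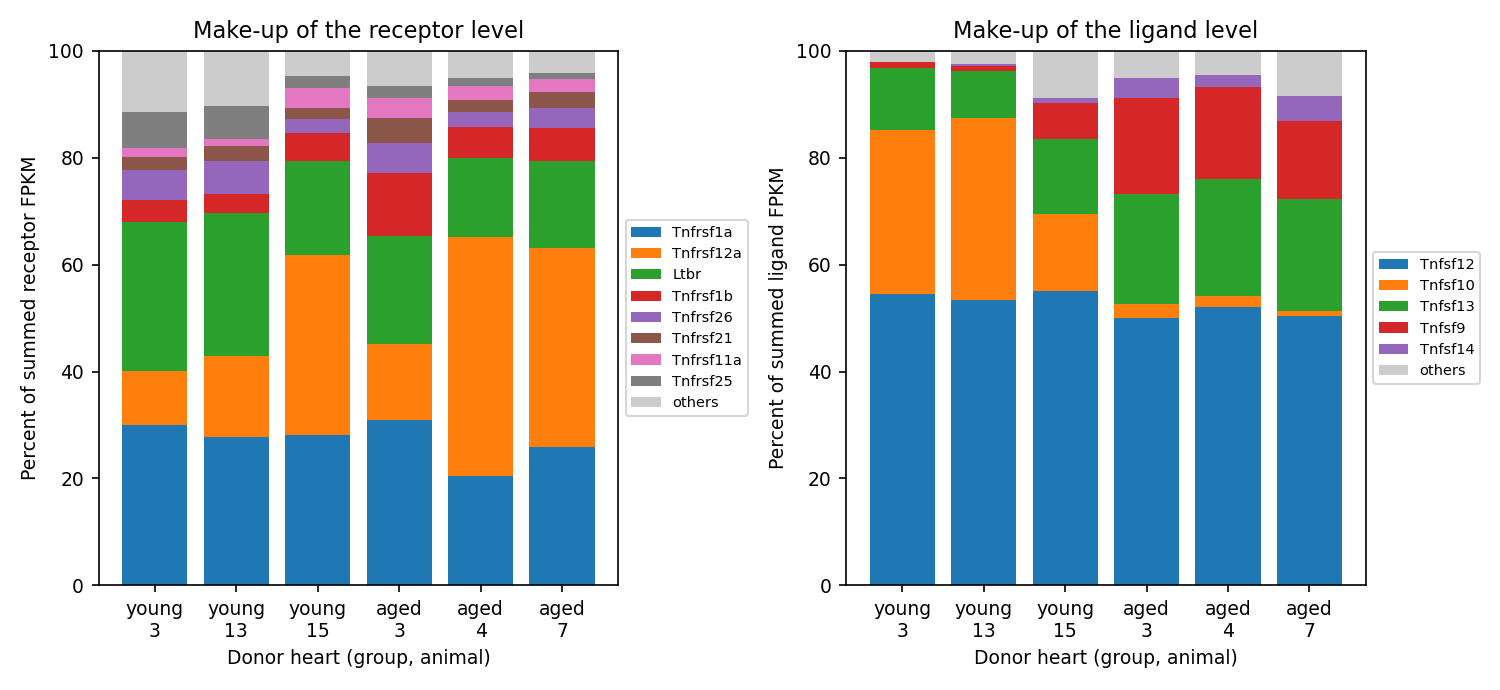
Percent of the summed FPKM of receptors (left) and of ligands (right) taken by each gene in each heart, with the remaining members in gray. Tnfsf12 takes between 50.0% and 55.1% of the ligand level in every heart, while Tnfsf10 takes between 14.4% and 34.1% in young and at most 2.68% in aged donor hearts.

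The genes around the receptors were described with 6 lists, 56 genes in all and all tested. Of these, 16 rose and 3 fell, against 13.2% and 19% of all genes tested, with a median log2 fold change of 0.49. Scaling by library totals gave 32 and 2, against 3147 and 1440 of all 13784 genes. Without young animal 15 the counts were 29 and 6, against 26.9% and 24.2% of all genes. The NF-kB subunits were higher in every aged heart than in any young heart for all 5 genes, against 21% of all genes. Of these subunits 3 rose: Relb (10.3, 11.6 and 19.5 against 39.3, 38.7 and 48.3 CPM, log2 fold change 1.61) and Nfkb2 (1.06), which form the noncanonical dimer, and Rel (1.07). Rela (0.50) and Nfkb1 (0.29) were under the fold limit. In the list of 11 feedback inhibitors 6 genes rose and 0 fell, and 9 rose without young animal 15. They were Tnfaip3 (1.63), Nfkbie (1.495), Nfkbia (1.20), Tnip2 (1.00), Otulin (0.84) and Sphk1 (1.70), of which Sphk1 is no inhibitor of the pathway but a kinase that makes sphingosine-1-phosphate. Tnfaip3, which encodes A20, an enzyme that edits ubiquitin chains and damps NF-kB signaling, measured 11.9, 11.8 and 12.8 CPM in young and 51.1, 24.0 and 38.1 CPM in aged donor hearts. Young animal 15 was at the level of the other young hearts for this gene. The calls of Relb, Nfkb2, Rel, Tnfaip3, Nfkbia and Tnip2 held in each of the 6 fits that left out 1 heart, while Sphk1 kept its call in 2 of them and Nfkbie and Otulin in 1, the fit without young animal 15 (Sphk1 2.85 and Nfkbie 2.40).

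The counts of the next lists stand against 13.2% of all genes tested that rose and 19% that fell. The list of 13 adaptors held the TRAF genes and Ripk1 together with Tradd, Fadd, Cradd, Traf3ip2 and Tank, and in it 3 rose and 0 fell. They were Ripk1 (log2 fold change 0.91), the kinase at the branch between NF-kB and cell death, Traf7 (0.69) and Traf3 (0.67). Of 15 ubiquitin enzymes and kinases leading to NF-kB, Birc3 (1.99), a ubiquitin ligase that acts at TNF receptors, and Ikbkb (0.59) rose, and Map3k5 (-1.37) and Map3k7 (-2.12) fell. For Map3k7, which encodes the kinase TAK1, young animal 3 was high at 9.43 CPM and the other young hearts measured 1.78 and 1.49 CPM, against 0.796 to 1.15 CPM in aged donor hearts. Without young animal 3 its log2 fold change was -0.75 and no longer past the limits. Of 7 genes of the death branch, Bid (2.05), a link from caspase-8 to mitochondria, rose and 0 fell, but without young animal 15 the counts were 5 and 1. Ripk3, the kinase of necroptosis, measured 6.47, 6.10 and 45.0 CPM in young and 89.3, 64.9 and 69.6 CPM in aged donor hearts, with an unadjusted edgeR p-value of 0.0509. Another list held 5 genes that shed ligands and receptors or act on the shedding. Of these, Rhbdf2 (1.79), a partner of the protease ADAM17, rose and Timp3 (-1.54), an inhibitor of that protease, fell. Adam17 itself (0.58) was just under the fold limit. Without young animal 15, 26.9% of all genes were higher and 24.2% lower. The counts were then 5 higher and 1 lower in the adaptor list, and 4 and 3 among the ubiquitin enzymes and kinases. With and without that heart, the higher counts of the ubiquitin enzymes and kinases were near the share of all genes. They were 4 and 0 among the NF-kB subunits and 2 and 1 in the list around shedding. Outside the 56 genes, Relt, a receptor of the same superfamily whose symbol the rule did not cover, rose (1.64) and was the only 1 of 6 related genes past the limits, against 3 higher and 1 lower without young animal 15. Ripk1, Birc3, Rhbdf2 and Timp3 were past the limits in each of the 6 fits that left out 1 heart, and Map3k5 in all but the fit without aged animal 4 (-1.27). Traf7, Ikbkb, Bid and Relt kept their call only without young animal 15, with log2 fold changes of 1.02, 0.86, 3.50 and 2.82, and Traf3 only without young animal 15 (0.93) or aged animal 3 (0.75).

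**Figure D4:**
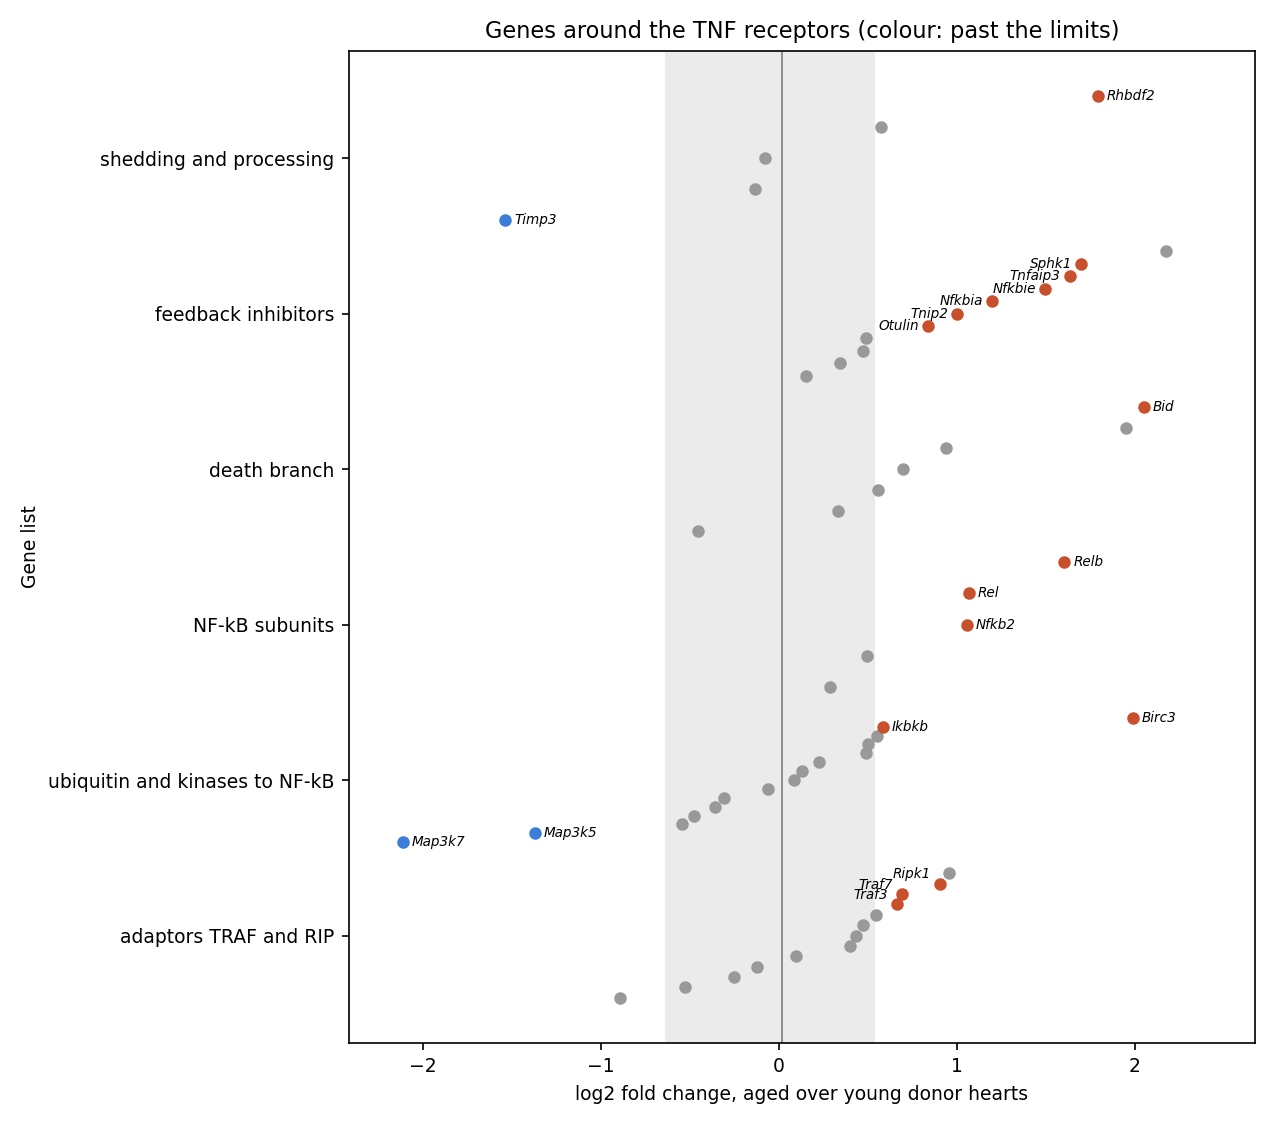
Log2 fold change (aged over young donor hearts) of 56 genes in 6 lists, in red where risen, blue where fallen and gray otherwise, over the band between the lower and upper quartile of all genes tested (-0.637 to 0.536). The NF-kB subunits and feedback inhibitors lie right of 0 throughout, while the ubiquitin enzymes and kinases reach from -2.12 to 1.99.

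Neutrophil, macrophage, T cell, dendritic cell and platelet markers summed higher in each aged heart than in any young heart. The member receptors did so too, but not the ligands. Of all genes tested, 13.2% rose, 19% fell and 21% had each aged heart above each young heart. Without young animal 15, 26.9% of all genes were higher and 24.2% lower. Of 10 neutrophil markers tested, 8 rose and 0 fell, and all 10 were higher in each aged heart than in any young heart. They summed to 28.8, 28.3 and 289 CPM in young animals 3, 13 and 15 and to 1798, 621 and 987 CPM in aged animals 3, 4 and 7. Of 9 macrophage markers tested, 5 rose and 0 fell, and they summed to 393, 363 and 2274 CPM in young and 6926, 4108 and 3597 CPM in aged donor hearts. The summed CPM of the member receptors was 256, 247 and 551 in young hearts and 756, 726 and 699 in aged donor hearts, with young animal 15 again between the others and the aged hearts. The summed CPM of the ligands was 113, 111 and 114 in young hearts and 122, 108 and 78.7 in aged donor hearts, with overlapping groups. Of 8 T cell markers tested 2 rose and 0 fell, and Cd8a, Cd8b, Lck and Cd2 were higher in each aged heart than in any young heart. The list summed to 36.9, 31.1 and 87.4 CPM in young donor hearts and 161, 140 and 112 CPM in aged donor hearts, with the defining genes Cd3d, Cd3e and Cd3g at 1.70 CPM or less in every heart. Of 6 natural killer cell, 5 B cell and plasma cell and 5 dendritic cell markers 0 were past the limits. The dendritic cell list summed to 42.4, 44.8 and 96.8 CPM in young and 150, 118 and 104 CPM in aged donor hearts. The platelet list summed to 8.47, 10.0 and 24.3 CPM in young and 118, 47.8 and 78.9 CPM in aged donor hearts. Of 10 cardiomyocyte markers 5 fell, of 8 endothelial 1, of 7 fibroblast 2, of 6 smooth muscle 1 and of 3 red cell markers 1, and of 2 platelet markers 1 rose. Without young animal 15 the counts were 10 of 10 neutrophil, 9 of 9 macrophage and 3 of 8 T cell markers higher, 6 cardiomyocyte markers lower, and 2 fibroblast markers higher with 1 lower. There were then also 2 dendritic cell markers higher and 1 lower, 1 B cell marker higher, and 2 each of the endothelial, smooth muscle and red cell markers lower. Whether these markers account for any part of the differences among members was not tested. In whole tissue, more cells of a type and more RNA per cell cannot be told apart.

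**Figure D5:**
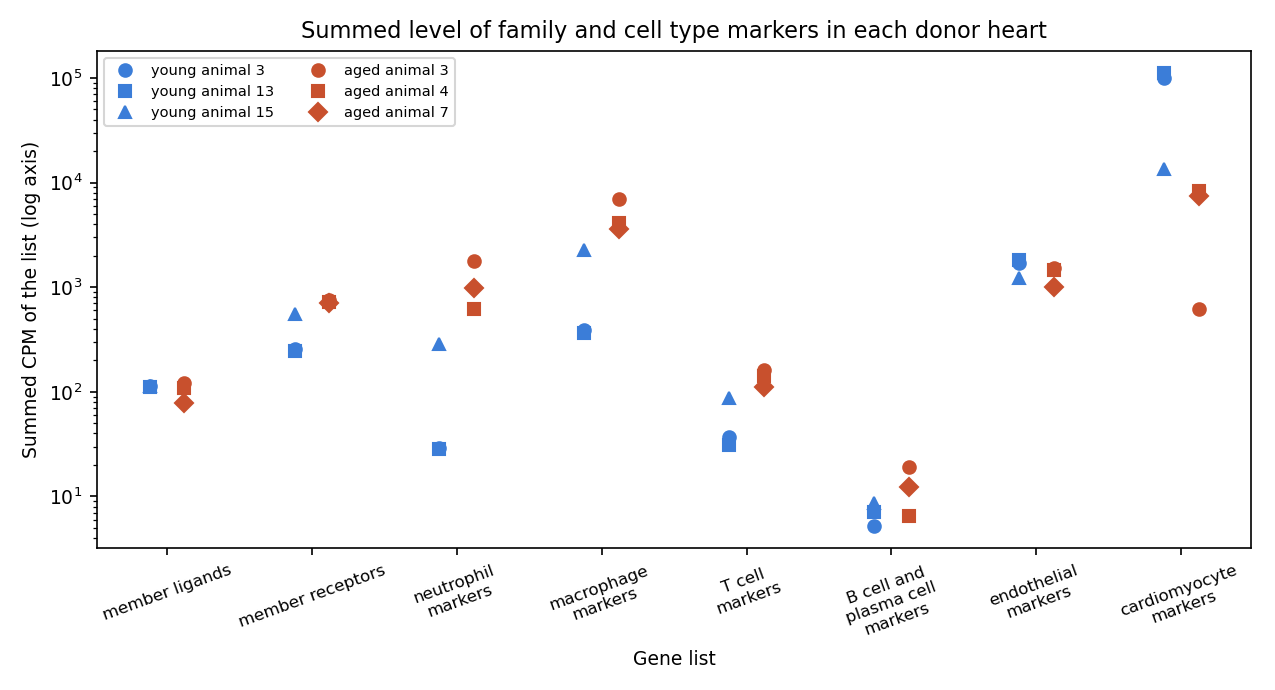
Summed CPM of the member ligands, the member receptors and 6 lists of cell type markers in each heart, on a log axis, with young donor hearts in blue and aged donor hearts in red. The neutrophil, macrophage and T cell sums and the receptor sum are higher in each aged heart than in any young heart. Young animal 15 (triangle) is the highest young heart in each of these sums, while cardiomyocyte markers are lowest in aged animal 3, at 618 CPM.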

How the data were processed

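Gene expression was measured by RNA-Seq of polyadenylated RNA in 3 young and 3 aged donor hearts. The authors deposited 1 table with the raw read count of each gene in each heart and the FPKM value derived from it, and no column of another sample was present. FPKM equalled the count divided by the deposited gene length and the library total for all 228 member values (relative tolerance 0.001). The submitters' processing notes name HISAT2 2.0.5, StringTie 1.3.3b, featureCounts 1.5.0-p3, DESeq2 1.16.1, GATK 3.7 and Rnor_6.0. Their order and the use of strand are not given in the sources used here, so reads shared by overlapping or near-identical genes are uncertain.

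Counts were analyzed in R 4.3.3 with edgeR 4.0.16 (filterByExpr, TMM, glmQLFit and glmQLFTest, no covariates), fitted over all genes with Benjamini-Hochberg adjustment. DESeq2 1.42.0 and limma 3.58.1 served as alternatives. The limits were those stated by the study. The code was tested on simulated data. Members, gene lists and tests were chosen with earlier results of these data known. Members past the limits, their known partners and Tnf were named with a value for every heart, and list genes where past the limits and at most 6 in a list. Genes named beyond that rule were chosen after their values were seen. Promoter sequences were taken from RefSeq (GRCr8). Receptors Tnfrsf10, Tnfrsf10b, Tnfrsf22 and Tnfrsf23 were not analysed here. Depth was similar between hearts, and 3 reads were taken as the floor. The floor covers counting error only, while SDs and standard errors include the spread between hearts. Each standard error (SE) of a log2 fold change was back-calculated, as its absolute value divided by the square root of edgeR's quasi-likelihood F statistic.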

Additional observations from a re-analysis of the deposited data

Results flagged for a closer look

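The gene LOC103694380, described in the table as tumor necrosis factor-like and outside the symbols that define the family, had 9 reads in the 3 aged donor hearts together (7, 1 and 1) and 0 in the young donor hearts. It was marked because reads appeared in a gene that the comparison of members does not use (its reads enter only where near copies were added to Tnf), above the level in the young donor hearts. Of these reads, 7 came from aged animal 3, and no test was made at this depth.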

How the results depend on the processing

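The counts of members and of pathway genes past the limits depended on the test and on single hearts, and the cause was not tested. By limma-voom with quality weights 15 members were higher and 2 lower, with 28 pathway genes higher and 7 lower. All genes then counted 3688 higher and 3815 lower of 13784 tested, against 1815 and 2621 by edgeR. With an adjusted p-value under 0.05 required in edgeR each of these 4 counts of members and pathway genes was 0, and 0 of all genes had such a value. With library totals 32 pathway genes were higher, against 3147 of all 13784 genes. Leaving out 1 heart gave 6 to 16 members higher and 1 to 2 lower, and 9 to 29 pathway genes higher and 2 to 6 lower. The highest counts of higher genes (16 and 29) and the 6 lower pathway genes came without young animal 15, the 2 lower members without young animal 13, and the lowest counts of higher pathway genes without young animal 3 (9), young animal 13 (10) and aged animal 7 (10). Under DESeq2's size factors, either other filter, DESeq2's Wald test and fold limits of 2 and 0.5, the counts of members were 7 to 11 higher and 1 lower. All genes counted 1776 to 2148 higher and 2631 to 2921 lower under these settings, leaving aside the fold limits. Adding the reads of near copies, a setting chosen after seeing the data, gave 10 higher, against 1816 of all 13784 genes. Summed receptor FPKM in aged donor hearts moved from 453.6 to 386.5 with TMM-scaled library sizes.

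Of 351 recomputed log2 fold changes of members, 307 kept their direction and side of the limits, 19 newly passed the limits, 8 no longer did and 17 changed sign. The sign changed for Cd27 (0.46) and Tnfrsf25 (0.13) with library totals and for Tnfrsf14 with limma-voom (-0.28). With 1 heart left out it changed within the ranges of Faslg (-0.11 to 0.84), Tnfsf13b (-0.997 to 0.20), Tnfrsf4 (-0.082 to 0.53), Tnfsf18 (-0.54 to 4.13), Tnfsf8 (-1.05 to 0.70), Cd27 (-0.38 to 0.36) and Tnfrsf14 (-0.15 to 0.36). None of these members was past the limits with all 6 hearts. Genes at a few reads per heart are limited by depth. No paired analysis was possible because the groups share only the number 3, which counts animals within a group.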
